A study of Homo sapiens with 3 samples.

Results

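Retinoic acid was added to dexamethasone-treated HCC1937 cells, and the transcripts of cells given both agents were set against those of cells given dexamethasone alone. The line, derived from a human breast cancer and long established, is classed as basal in the labels. Illumina bead arrays measured its total RNA, with 1 array from cells given 200 nM dexamethasone with 1 µM retinoic acid for 16 h (dex+RA), 1 from cells given 200 nM dexamethasone for 16 h (dex) and 1 from untreated cells. The medium of all cells was DMEM, at 3 mM glucose and 0.5 mM glutamine. The dex+RA and untreated arrays lay on slide 1 and the dex array alone on slide 2, so no difference between dex+RA and dex could be measured within a slide, and slide and treatment cannot be told apart. No array was repeated, so no test was run and no difference has a replicate check. The comparison covered every probe that the platform annotation gives 1 gene symbol and that was detected (detection p-value under 0.01) on at least 1 of the 2 arrays, which were 14213 of 47315 probes. Keeping 1 probe per gene, the brightest on average across the arrays, left 10745 of 20043 genes.

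Retinoic acid, made from retinol by oxidation, binds the receptors RARA, RARB and RARG, which act on DNA as partners of the RXR receptors. Ligand binding exchanges corepressors for coactivators, and among the classical targets are the genes of the enzymes that clear retinoic acid itself, so the pathway limits its own input. Dexamethasone is a synthetic ligand of another nuclear receptor, the glucocorticoid receptor NR3C1. In epithelia, retinoids are known as regulators of keratinisation and of the balance between proliferation and differentiation.

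Receptor pairs of this family bind direct repeats of a hexamer close to AGGTCA, and 3 promoter windows are printed because their genes, all with roles in retinoid handling, were detected on the dex+RA array and on neither of the other arrays. The windows come from RefSeq on GRCh38.p14, with 1 annotated start kept per gene. They run from 250 bases before to 50 bases after that start, 5′ to 3′ on the gene's strand. Capitals mark AGGTCA, the variant AGTTCA, the variant GGGTCA and the variant GGTTCA on either strand, a marking that was added after the values were seen. The CYP26A1 window lies at chr10:93073225-93073524 on the plus strand, the DHRS3 window at chr1:12618161-12618460 on the minus strand and the STRA6 window at chr15:74212210-74212509 on the minus strand.
CYP26A1: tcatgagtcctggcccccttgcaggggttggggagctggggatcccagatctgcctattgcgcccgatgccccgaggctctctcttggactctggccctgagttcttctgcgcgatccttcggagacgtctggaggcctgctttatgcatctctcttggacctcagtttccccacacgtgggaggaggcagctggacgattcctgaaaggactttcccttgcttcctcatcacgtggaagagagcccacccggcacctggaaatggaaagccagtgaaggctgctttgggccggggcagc
DHRS3: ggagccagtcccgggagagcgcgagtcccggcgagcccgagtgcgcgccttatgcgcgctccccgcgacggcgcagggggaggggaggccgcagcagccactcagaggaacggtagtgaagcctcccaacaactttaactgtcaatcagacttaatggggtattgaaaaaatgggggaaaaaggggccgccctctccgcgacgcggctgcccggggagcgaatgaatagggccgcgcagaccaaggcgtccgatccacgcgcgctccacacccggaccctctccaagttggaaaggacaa
STRA6: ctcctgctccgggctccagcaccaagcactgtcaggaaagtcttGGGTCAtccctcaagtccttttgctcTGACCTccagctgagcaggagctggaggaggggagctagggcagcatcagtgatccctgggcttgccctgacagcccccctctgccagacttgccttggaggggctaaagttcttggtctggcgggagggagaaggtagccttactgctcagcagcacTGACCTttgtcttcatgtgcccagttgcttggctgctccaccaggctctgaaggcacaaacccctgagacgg
STRA6 held 3 such hexamers, 1 on the strand shown and 2 on the other strand, and 2.09% of all 27305 promoters held at least 3. CYP26A1 and DHRS3 held 0. Direct repeats of these hexamers spaced by 1, 2 or 5 bases, on either strand, were found in 0 of 253 promoters of genes at least 2-fold higher on the dex+RA array and in 0 of 297 promoters of genes at least 2-fold lower. They were found in 21 of 8728 promoters of measured genes (0.241%) and in 70 of all 27305 (0.256%). At least 1 hexamer was present in 32.8% of the promoters of higher genes, 30.6% of those of lower genes and 31.9% of those of all measured genes. These counts describe the letters of short windows and say nothing of binding farther from the start. Of 35116 windows, 27305 were kept, 1 per gene. Hexamers near any other start of a gene, also of the 3 printed, were not counted.

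Detected probes numbered 16635 on the dex+RA array, 17091 on the dex array and 16818 on the untreated array, with a median of 21 or 22 beads behind each probe. The median bead intensities, unscaled as deposited, were 159.0 on the dex+RA array, 149.3 on the dex array and 131.6 on the untreated array. Levels are given below as normalized intensity, after background correction and quantile normalization, on a linear scale, and differences as folds or log2 differences of dex+RA over dex. The bead standard error (SE) given with a log2 difference reflects bead-to-bead spread within the 2 arrays and nothing else. "At least" marks a fold in which one side was undetected and was replaced by the dimmest detected level on that array, 49.3 for dex+RA and 46.9 for dex, unless its own value was higher. Such a bound holds for the background-corrected values alone, and where a 2-fold difference was lost without background correction the smaller fold is given. The bead SE printed with a bound was computed from the undetected side's own value, not from the level that replaced it. Some markers of other cell types were detected. Of 20 endothelial markers, 6 were detected on the dex+RA array, 5 on the dex array and 4 on the untreated array. Of 19 blood cell markers, 5 were detected on the dex+RA array, 4 on the dex array and 5 on the untreated array. Of 15 fibroblast markers, 1 was detected on the dex+RA array, 3 on the dex array and 2 on the untreated array.

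Of the 10745 genes, 321 (2.99%) were at least 2-fold higher on the dex+RA array and 384 (3.57%) at least 2-fold lower, and these are the genes called higher or lower. Of the lower genes, 246 had a dex+RA level within 2-fold of untreated and 87 were also at least 2-fold below untreated. A further 18 lower genes were undetected on both the dex+RA and untreated arrays and had no such comparison. For 179 of the lower genes the dex level was at least 2-fold above untreated. Of the higher genes, 174 were also at least 2-fold above untreated and 146 within 2-fold of it. For 60 of these higher genes the dex level was at least 2-fold below untreated. The same dex array enters both comparisons, so a high or low dex value alone can place a gene in these counts. The matching shares over all genes are not given here. Most calls were moderate in size. Among the higher genes 277 differed by 2- to 4-fold, 32 by 4- to 8-fold and 12 by 8-fold or more, and among the lower genes the counts were 340, 33 and 11. The median fold was 2.32 for the higher and 2.42 for the lower genes, and 46 and 37 of the folds were bounds. Within 1.5-fold lay 78.0% of genes, and the median log2 difference over all genes was -0.01. Where a called gene had other measured probes, 94 of 99 probes of higher genes (94.9%) and 106 of 113 probes of lower genes (93.8%) differed in the same direction, against 70.0% of 3210 probes of genes that were not called. A 2-fold difference in that direction was reached by 42 of the 99 and 49 of the 113. These probes read the same 2 arrays, and the genes not called had small differences by definition. Higher genes made up 45.5% of the calls. With each array scaled to its 75th percentile over probes detected on all 3 arrays, a setting added after the values were seen, that share was 31.2% (240 higher and 528 lower) and the median of all genes was -0.10.

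**Figure D1:**
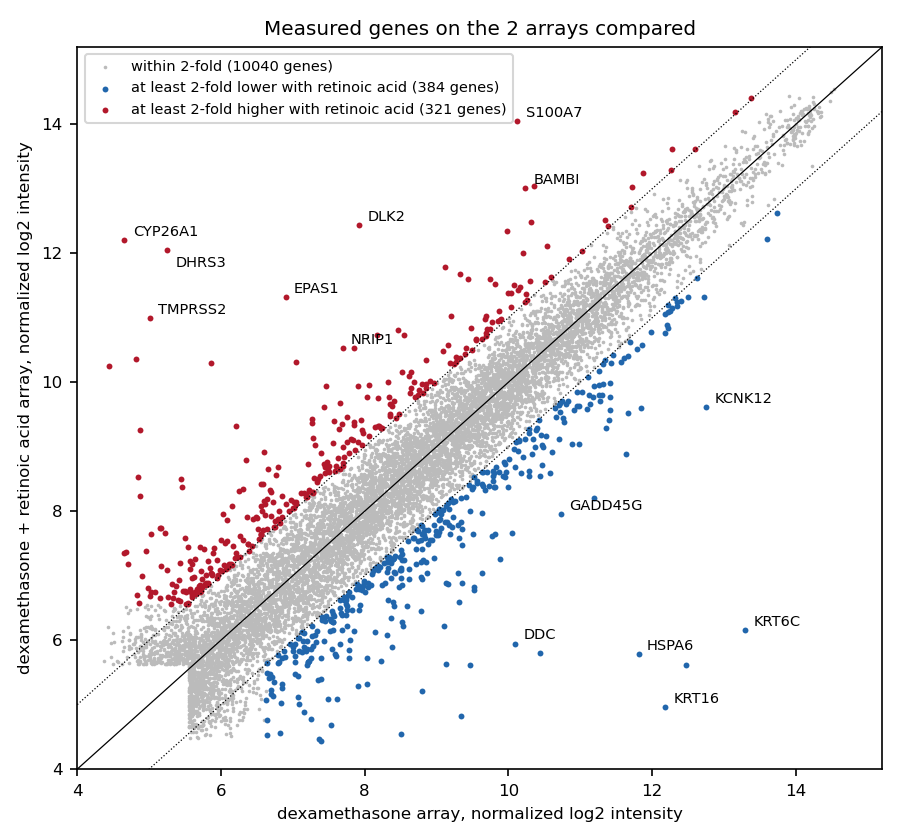
Normalized log2 intensity of each of the 10745 measured genes on the dex array (x axis) and the dex+RA array (y axis), 1 array per treatment. Dotted lines mark a 2-fold difference, undetected values are plotted as measured, and coloured points are the 321 higher and 384 lower genes. CYP26A1, DHRS3 and TMPRSS2 stand near the left edge, at background on the dex array, and KRT6C, KRT16 and HSPA6 near the bottom.

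Several genes that take up, convert or clear retinoids were higher with retinoic acid. Of 15 measured members of the retinoid metabolism and transport list, 5 were higher (33.3%, against 2.99% over all genes) and 0 lower. The median log2 difference was 0.58, against -0.01 over all genes, and 18 further members with a probe were undetected on both arrays. The higher CYP26A1, DHRS3 and STRA6 entered through the dex+RA array alone, so they could not come out lower. Among the 12 members detected on both arrays, 2 were higher and 0 lower (median 0.41). CYP26A1, a cytochrome P450 that oxidises retinoic acid, had a normalized intensity of 4700.3 on the dex+RA array, against 25.2 (undetected) on the dex array and 27.5 (undetected) on the untreated array. DHRS3, which reduces retinaldehyde back to retinol, had 4240.0 on the dex+RA array, against 38.1 (undetected) on the dex array and 31.9 (undetected) on the untreated array. Both transcripts thus stood at background without retinoic acid and were bright with it, CYP26A1 at least 100.3-fold higher (bead SE 0.24 around a log2 difference of 6.65) and DHRS3 at least 90.5-fold higher (bead SE 0.17). The remaining 2 probes of CYP26A1 gave folds of at least 6.32 and at least 20.9. In RNA from whole cultures, more cells with a transcript and more transcript per cell cannot be told apart.

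CYP26B1, another retinoic acid hydroxylase, had 1708 on the dex+RA array, against 373 on the dex array and 178 on the untreated array. It was detected without retinoic acid and was 4.57-fold higher with it (log2 difference 2.19, bead SE 0.08). STRA6, the membrane receptor that takes up retinol from its plasma carrier, had 163 on the dex+RA array, against 25.2 (undetected) on the dex array and 21.4 (undetected) on the untreated array, which made it at least 3.47-fold higher; without background correction the fold was 1.70. RDH11, a retinaldehyde reductase, had 3849.9 on the dex+RA array, against 1830.3 on the dex array and 2921 on the untreated array. Its dex+RA level was 2.10-fold its dex level and its other probe gave 1.62-fold, while the untreated level lay between the other two. Members that were not called included RDH10, which oxidises retinol to retinaldehyde (0.68), and RDH14, a retinol dehydrogenase (0.58). The retinaldehyde reductase AKR1B10 differed by 0.84, AKR1C3, an aldo-keto reductase, by 0.57 and the retinoic acid-forming dehydrogenase ALDH1A3 by -0.44. CRABP2, which carries retinoic acid to the nucleus, was bright on every array and nearly level between the treatments, with 4031 on the dex+RA array, against 3802 on the dex array and 6496 on the untreated array. The list's median was 0.08 with no detection filter and 0.38 without background correction.

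Most retinoid receptor and coregulator genes were not called. Of 20 measured receptors and coregulators, 1 was higher, 2 were lower and 17 were not called (median -0.07). In a list this small, both shares still lay above the 2.99% called higher and 3.57% called lower over all genes. RARB, RARG and RXRG were undetected on all 3 arrays. RARA, the only retinoic acid receptor detected, had 722 on the dex+RA array, against 1225 on the dex array and 1670.1 on the untreated array, a log2 difference of -0.76 (bead SE 0.06) that was not called. RXRA, its DNA-binding partner, had 872 on the dex+RA array, against 2317 on the dex array and 1122 on the untreated array. The dex+RA and untreated levels of RXRA were near each other, the dex level stood above both, and RXRA was 2.66-fold lower with retinoic acid. Its relative RXRB differed by 0.00. NRIP1, a ligand-dependent corepressor of nuclear receptors, had 1477 on the dex+RA array, against 207 on the dex array and 259 on the untreated array. It was 7.13-fold higher (log2 difference 2.83, bead SE 0.13), the 1 higher member of this list. The fatty acid receptor PPARD was 2.59-fold lower and PPARG, a relative that promotes lipid storage, differed by 0.84. The glucocorticoid receptor gene NR3C1 had 152 on the dex+RA array, against 203 on the dex array and 182 on the untreated array, a log2 difference of -0.42, and 1 of its 3 probes was detected on each of the dex+RA and dex arrays. PPARD was 1.53-fold lower without background correction.

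Genes described as retinoic acid targets outside metabolism, many of them from other cell types, gave 8 higher and 1 lower of 26 measured. Those shares were 30.8% and 3.85%, against 2.99% and 3.57% over all genes. The median was 0.61, but 0.21 with no detection filter and 0.33 without background correction. Detection on both arrays left 22 members, 6 of them higher and 1 lower. This list, like the others, was chosen with earlier results of these data known. ELF3, an epithelial transcription factor, had 3284 on the dex+RA array, against 640.3 on the dex array and 531 on the untreated array, and was 5.13-fold higher. LCN2, an iron-scavenging lipocalin, was undetected on the dex array and was at least 4.09-fold higher. For both the dex+RA level stood above both other arrays. HOXB2, a homeobox gene of hindbrain patterning, was at least 2.23-fold higher but had 104 on the dex+RA array, against 28.5 (undetected) on the dex array and 85.0 on the untreated array, so its dex+RA level was near its untreated level. The cell cycle inhibitor CDKN1A was the 1 lower member (2.03-fold), FOXA1, a pioneer factor of luminal cells, differed by 0.94, and TGM2, a transglutaminase long known to respond to retinoids in other cells, by 0.13. Without background correction 3 of the 8 higher members kept a 2-fold difference, LCN2 was 1.88-fold and HOXB2 1.35-fold higher, and CDKN1A was 1.99-fold lower.

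**Figure D2:**
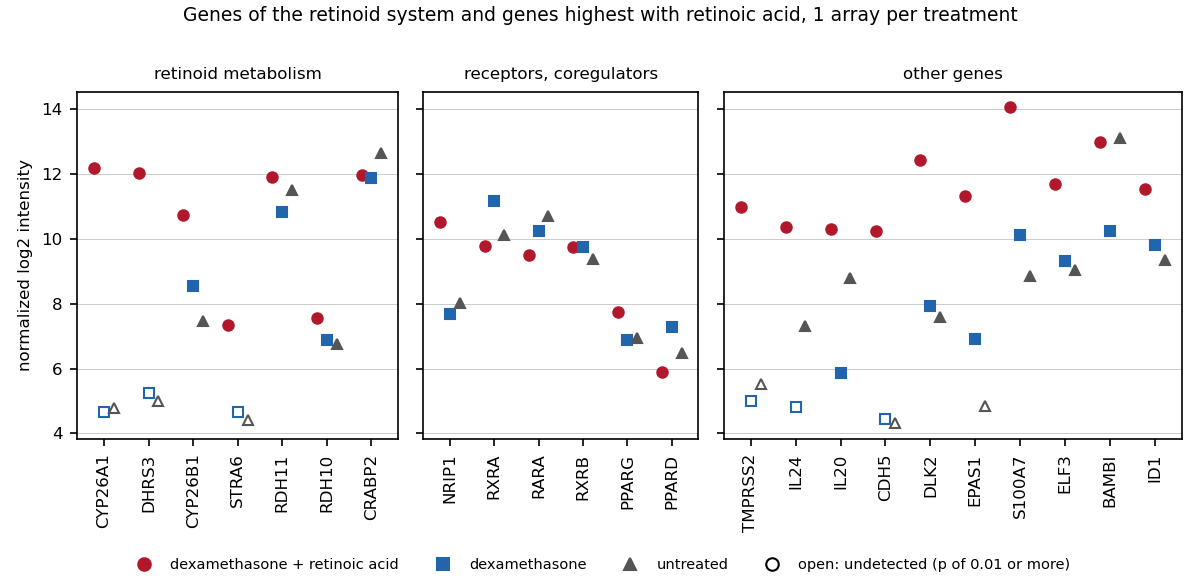
Normalized log2 intensity (y axis) of genes of retinoid metabolism, of retinoid receptors and coregulators, and of other genes that were higher with retinoic acid, with 1 point per array for dex+RA, dex and untreated cells; open points are undetected. CYP26A1, DHRS3, TMPRSS2 and CDH5 are detected on the dex+RA array alone, whereas IL24, IL20 and BAMBI are also detected on the untreated array.

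Several of the largest differences lay outside the retinoid genes. TMPRSS2, a membrane serine protease of epithelia, had 2041 on the dex+RA array, against 32.2 (undetected) on the dex array and 45.8 (undetected) on the untreated array, and was at least 43.6-fold higher (log2 difference 5.44, bead SE 0.22). It was the 1 higher member among 15 measured membrane serine proteases and inhibitors, of which FURIN, a proprotein convertase, was 2.15-fold lower (1.39-fold without background correction). DLK2, a membrane protein of the Notch ligand-like family, had 5555 on the dex+RA array, against 243 on the dex array and 193 on the untreated array. DLK2 was 22.8-fold higher, and its other probe was at least 3.76-fold higher. EPAS1, the hypoxia-inducible factor HIF-2α, had 2564 on the dex+RA array, against 119 on the dex array and 28.5 (undetected) on the untreated array, a 21.5-fold difference. All 3 genes were well above both other arrays with retinoic acid. LXN, a carboxypeptidase inhibitor, had 8408 on the dex+RA array, against 1316 on the dex array and 653 on the untreated array, and was 6.39-fold higher. BZW1, a translation regulator, was 9.66-fold higher, AUTS2, a nuclear protein studied in brain development, 6.39-fold higher and PDE3B, a cyclic nucleotide phosphodiesterase, at least 7.09-fold higher.

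CDH5, the cadherin of endothelial junctions, had 1214 on the dex+RA array, against 21.7 (undetected) on the dex array and 19.9 (undetected) on the untreated array, and was at least 25.9-fold higher (log2 difference 4.70, bead SE 0.31). It was the 1 called gene among 6 measured endothelial markers, and TIE1, an endothelial receptor kinase, ENG, a TGF-beta coreceptor, and the adhesion molecule ESAM differed by 0.14, -0.75 and -0.26. The summed bead intensity of detected endothelial markers was 4827 on the dex+RA array, 2634 on the dex array and 1995 on the untreated array, and the part of other cell types in the CDH5 level was not tested. MAG, a glycoprotein of myelin, had 611 on the dex+RA array, against 29.4 (undetected) on the dex array and 42.8 (undetected) on the untreated array. GABBR2, a subunit of the GABA-B receptor, was likewise detected on the dex+RA array alone and was at least 6.41-fold higher. CYP2F1, a cytochrome P450 of the airways, was at least 7.92-fold higher and also detected there alone.

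A pair of cytokine genes of the IL-20 family separated dex from the other arrays. IL24 had 1319.7 on the dex+RA array, against 28.1 (undetected) on the dex array and 158 on the untreated array, and IL20 had 1255 on the dex+RA array, against 57.9 on the dex array and 442 on the untreated array. Both were lowest on the dex array and highest on the dex+RA array, IL24 by at least 28.2-fold over dex (log2 difference 4.82, bead SE 0.28; its other probe at least 4.80-fold) and IL20 by 21.7-fold (log2 difference 4.44, bead SE 0.15). The receptor chains IL20RA and IL22RA1 were undetected on all 3 arrays, and IL20RB was detected on the untreated array alone. STAT3, the transcription factor downstream of these receptors, differed by -0.76, the kinase JAK1 by 0.18 and SOCS3, a feedback inhibitor, by -0.29. Of 8 measured members, 2 were higher and 0 lower (median -0.17).

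The S100 calcium-binding proteins divided, with 3 of 14 measured members higher and 3 lower (median -0.45). That was 21.4% each way, against 2.99% and 3.57% over all genes. S100A7, known as psoriasin in inflamed epidermis, had 17042 on the dex+RA array, against 1117 on the dex array and 464 on the untreated array, and was 15.3-fold higher. S100A7A, a near-identical copy whose probe may share signal, had 1796 on the dex+RA array, against 352 on the dex array and 40.2 (undetected) on the untreated array, and was 5.10-fold higher. S100A9, a subunit of calprotectin, had 12558 on the dex+RA array, against 4951 on the dex array and 2743 on the untreated array, and was 2.54-fold higher. In these 3 the dex+RA level was the highest and the untreated level the lowest. Its calprotectin partner S100A8 differed by -0.32. The lower members were S100A14 (3.24-fold), S100A4, linked to cell motility (2.48-fold), and S100A16 (2.25-fold). Of these, S100A4 was 1.83-fold lower without background correction.

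Among Notch genes 4 of 22 measured were higher (18.2%) and 2 lower (9.09%), against 2.99% and 3.57% over all genes (median -0.18). The ligand gene DLL1 had 999 on the dex+RA array, against 266 on the dex array and 109 on the untreated array, and was 3.75-fold higher. The target HES1 was 2.12-fold and HES2 2.10-fold higher, but 1.54-fold and 1.39-fold without background correction. The receptor gene NOTCH1 had 211 on the dex+RA array, against 658 on the dex array and 560.2 on the untreated array, and was 3.12-fold lower, and the coactivator gene MAML1 was 2.33-fold lower (1.66-fold without background correction). Another receptor gene, NOTCH3, differed by -0.58 and was not called.

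Of 35 measured genes of the BMP and TGF-beta list, 3 were higher (8.57%) and 2 lower (5.71%), against 2.99% and 3.57% over all genes. The median was -0.25. GDF15, a distant member of the family induced by stress, had 641 on the dex+RA array, against 74.1 on the dex array and 128 on the untreated array, and was 8.64-fold higher. BAMBI, a decoy receptor that dampens BMP and activin signals, had 8226 on the dex+RA array, against 1203 on the dex array and 8800.3 on the untreated array. BAMBI was 6.83-fold higher than with dexamethasone alone, and its dex+RA level was close to its untreated level. The BMP target ID1 had 2954 on the dex+RA array, against 897 on the dex array and 652 on the untreated array, and was 3.29-fold higher, whereas its relative ID3 differed by -0.92. The ligand genes BMP7 (2.56-fold) and TGFB3 (2.42-fold) were lower, but by 1.82-fold and 1.56-fold without background correction, where 0 members of the list stayed 2-fold lower. In the Wnt list AXIN2, a feedback inhibitor, was 3.44-fold higher and KREMEN2, a receptor of the inhibitor DKK1, 2.84-fold lower. AXIN2 was 1.89-fold higher without background correction.

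Enzymes of the eicosanoid pathway gave 4 higher (17.4%) and 0 lower of 23 measured, against 2.99% and 3.57% over all genes (median 0.03). PLA2G10, a secreted phospholipase that frees arachidonic acid, had 411 on the dex+RA array, against 111 on the dex array and 40.4 (undetected) on the untreated array, and was 3.71-fold higher. PTGES, which makes prostaglandin E, was 3.59-fold higher and HPGD, which inactivates it, 3.28-fold higher. ALOX5AP, needed for leukotriene synthesis, had 1306 on the dex+RA array, against 463 on the dex array and 23.4 (undetected) on the untreated array, and was 2.82-fold higher. Synthetic and inactivating enzymes were therefore both among the called members, all 4 of which kept a 2-fold difference without background correction. ANXA5, a phospholipid-binding annexin, differed by -0.83 and the cytosolic prostaglandin E synthase PTGES3 by 0.72.

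Further genes higher with retinoic acid had roles at the epithelial surface and in metabolism. SDC1, a cell surface proteoglycan of epithelia, had 3109 on the dex+RA array, against 859.9 on the dex array and 981 on the untreated array, and was 3.62-fold higher. CLDN1, a tight junction claudin, had 870.3 on the dex+RA array, against 325 on the dex array and 154 on the untreated array, and was 2.68-fold higher, the 1 called gene of 15 measured in its list. EFNA1, an ephrin ligand, was 2.07-fold higher and ARTN, a ligand of the RET coreceptor GFRA3, at least 7.74-fold higher. In glycolysis the hexokinase gene HK2 had 2676 on the dex+RA array, against 1016 on the dex array and 848 on the untreated array, and was 2.63-fold higher, and PFKFB3, which makes an activator of phosphofructokinase, 2.03-fold higher. SLC27A2, a fatty acid transporter, was 3.61-fold higher, ACADM, a fatty acid oxidation enzyme, 2.34-fold higher and ELOVL5, which elongates unsaturated fatty acids, 2.01-fold higher. PARP9, an interferon-linked ADP-ribosyltransferase, was 4.32-fold higher, whereas the interferon-induced ISG15 was 2.09-fold and GBP2 2.04-fold lower. Of apoptosis genes, HRK, a BH3-only killer protein, was at least 3.71-fold and the death receptor gene TNFRSF10A 2.89-fold higher, and the BH3-only gene BMF 2.04-fold lower. Without background correction EFNA1 was 1.99-fold, PFKFB3 1.94-fold and ELOVL5 1.98-fold higher, and ISG15 was 1.90-fold and GBP2 1.35-fold lower. The 3 apoptosis genes also lost their calls there, with HRK 1.77-fold and TNFRSF10A 1.83-fold higher and BMF 1.91-fold lower, and 0 genes of that list stayed called.

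Replication genes differed little one by one and mostly in one direction. Of 44 measured genes of DNA replication and nucleotide synthesis, 37 had a log2 difference above 0 and 7 below, with a median of 0.37, against 5132 above and 5477 below over all genes. The called members were RFC2, a subunit of the clamp loader, with 412 on the dex+RA array, against 175 on the dex array and 674 on the untreated array, and MCM10, an origin firing factor, with 539 on the dex+RA array, against 241 on the dex array and 1064 on the untreated array. RFC2 was 2.35-fold and MCM10 2.24-fold higher, and for both the untreated level was the highest of the 3. These 2 genes made up 4.55% of the list, near the 2.99% called higher over all genes. Without background correction RFC2 was 1.80-fold and MCM10 1.83-fold higher. The helicase subunit gene MCM7 differed by 0.29 and the ribonucleotide reductase gene RRM1 by 0.35. The median of the list lay between 0.31 and 0.49 under the other ways of processing. Of 54 measured mitosis and spindle genes, 26 were above 0 and 28 below (median -0.02). This list held 1 higher and 1 lower gene (1.85% each), below the 2.99% and 3.57% over all genes. There the checkpoint gene MAD2L1 was 2.06-fold higher, CDC25B, a phosphatase that activates mitotic kinases, 2.17-fold lower, and CDC20, an activator of the anaphase-promoting complex, differed by -0.92. MAD2L1 was 1.92-fold higher without background correction, and the lowest fold of CDC25B under another setting was 1.93-fold.

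**Figure D3:**
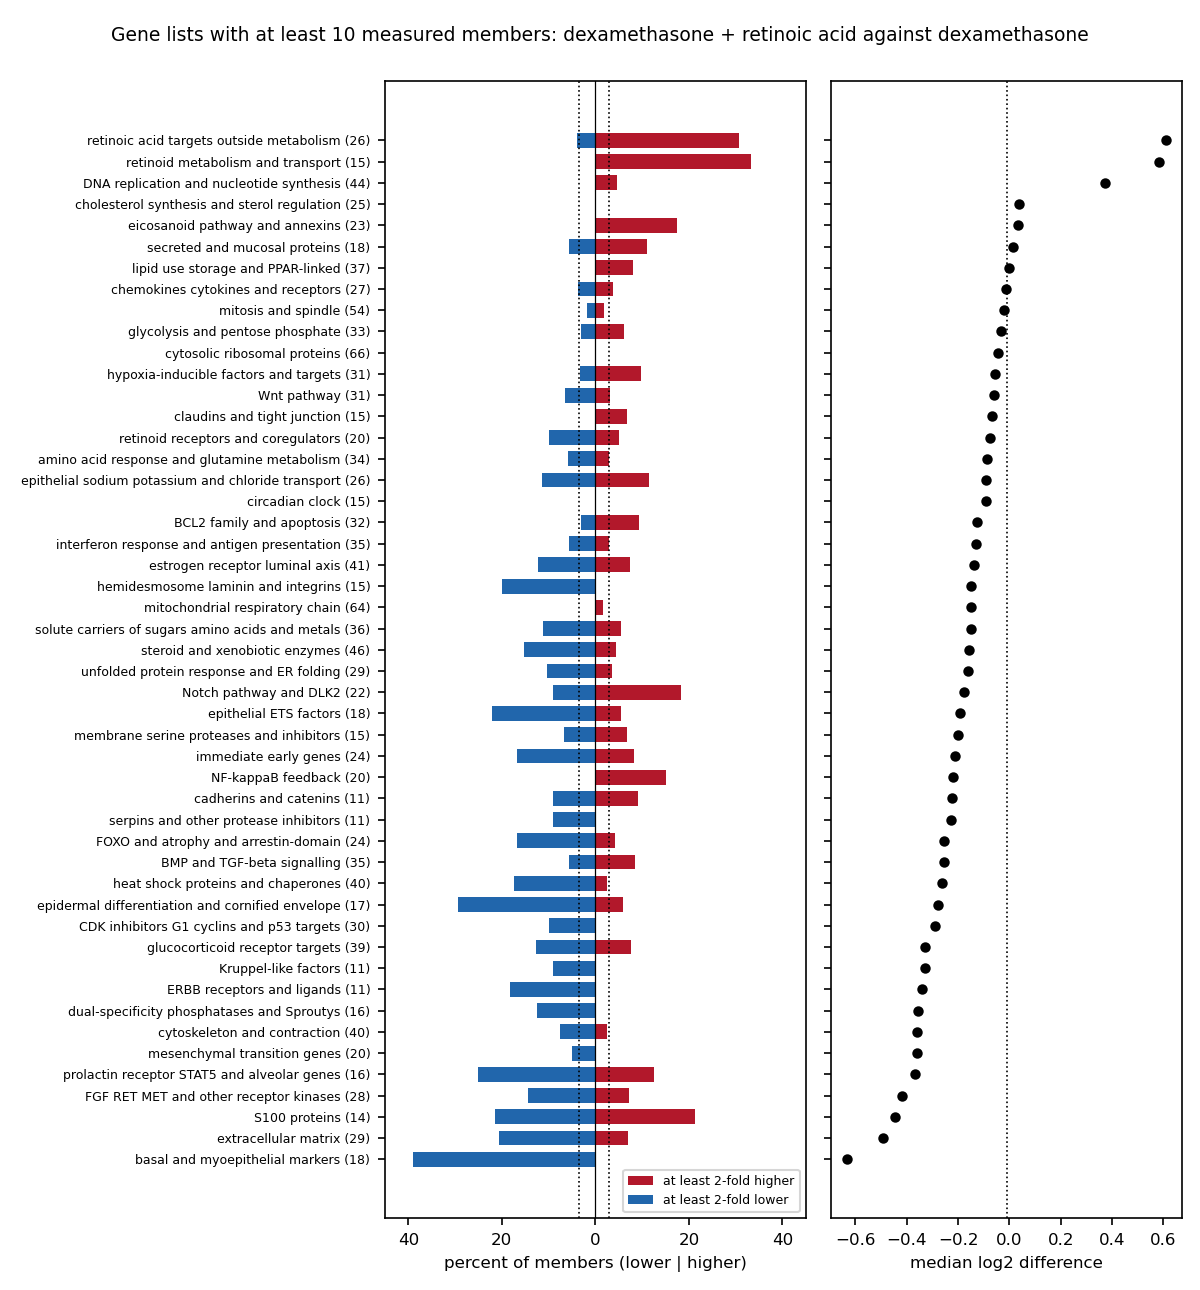
Gene lists with at least 10 measured members (number in brackets), with the percent of members lower or higher (left panel) and the median log2 difference, dex+RA minus dex (right panel); dotted lines give the values over all measured genes. Retinoic acid targets outside metabolism, retinoid metabolism and DNA replication have the highest medians, at 0.61, 0.58 and 0.37, and basal and myoepithelial markers the lowest, at -0.63. The lists were chosen with earlier results of these data known.

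Several stress and basal keratins, which mark activated or basal keratinocytes, were bright on the dex array alone. KRT6C had 71.6 on the dex+RA array, against 10020.4 on the dex array and 23.1 (undetected) on the untreated array. It was 140.0-fold lower with retinoic acid (log2 difference -7.13, bead SE 0.10), but its sequence is near-identical to KRT6A and KRT6B, and the signal cannot be assigned to 1 of these genes. KRT16, the partner of the KRT6 proteins in hyperproliferative epidermis, had 31.1 (undetected) on the dex+RA array, against 4634 on the dex array and 36.0 (undetected) on the untreated array, and was at least 94.0-fold lower (log2 difference -6.55, bead SE 0.19; its other probe at least 34.8-fold). The pseudogene KRT16P2, close in sequence to KRT16, was at least 115-fold lower. KRT5, the basal cell keratin, had 23.4 (undetected) on the dex+RA array, against 364 on the dex array and 21.1 (undetected) on the untreated array, and was at least 7.39-fold lower. Each of these probes was low on both the dex+RA and the untreated array. Of 6 measured members of the list, 3 were lower and 0 higher, and KRT15, KRT10 and KRT80 differed by 0.12, -0.39 and -0.59. KRT16 and KRT5 entered through the dex array alone, and of the 4 members detected on both arrays 1 was lower. With so few members the median of -1.74 was -0.49 among genes detected on both arrays.

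The keratins of simple epithelia did not share this pattern. KRT8 had 15822 on the dex+RA array, against 19141 on the dex array and 14553 on the untreated array, a log2 difference of -0.27. KRT18 differed by 0.08 on its brighter probe and -0.41 on its other probe, KRT19 by -0.16 and KRT7 by 0.10, so 0 of 4 were called. The basal label of the line could be checked only in part. KRT5 was detected on the dex array alone and KRT14 on no array, the basal integrin gene ITGA6 was detected on every array (0.00), and KRT17 and TP63 were not analysed here. The luminal markers ESR1, GATA3, FOXA1, KRT8, KRT18, KRT19 and EPCAM were detected on all 3 arrays, and of the mesenchymal markers VIM was detected while ZEB1, CDH2 and FN1 were not. The basal keratins KRT5 and KRT14 were thus undetected in dex+RA and untreated cells. Of 27 basal and myoepithelial markers with a probe, 14 were detected on the dex+RA array, 18 on the dex array and 13 on the untreated array.

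Several other basal and junction genes were lower. In the list of basal and myoepithelial markers 7 of 18 measured genes were lower and 0 higher (median -0.63; -0.33 with no detection filter). Besides KRT5 and KRT16 they were CRYAB, a small heat shock protein, the laminin receptor subunit gene ITGB4, the cadherin gene CDH3, the actin bundler gene FSCN1 and TRIM29. KRT5, KRT16, ITGB4 and TRIM29 entered through the dex array alone, so they could not come out higher. Among the 14 members detected on both arrays, 3 were lower and 0 higher (median -0.50). ITGB4 had 39.2 (undetected) on the dex+RA array, against 239 on the dex array and 91.2 on the untreated array, and was at least 4.86-fold lower. TRIM29 was at least 3.39-fold lower, CDH3 2.60-fold and FSCN1 2.12-fold. Without background correction 5 of the 7 stayed called, and TRIM29 was 1.70-fold and CDH3 1.84-fold lower. ITGB4 was just short of a 2-fold difference with the deposited normalized values, and FSCN1 was 1.91-fold lower with scaling to the 75th percentile of all probes. PLEC, which ties hemidesmosomes to keratin filaments, had 151 on the dex+RA array, against 449.5 on the dex array and 148 on the untreated array, and was 2.97-fold lower. The caveolin gene CAV1 differed by -0.79 and the mesenchymal transcription factor gene SNAI2 by 0.00.

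All 9 measured desmosome genes had a log2 difference below 0 as reported, between -1.39 and -0.04, and 2 were called lower (median -0.47). That was 22.2%, against 3.57% over all genes, and of the 7 detected on both arrays 1 was called. DSP, desmoplakin, which anchors keratin filaments, had 1827 on the dex+RA array, against 4788 on the dex array and 884 on the untreated array, and was 2.62-fold lower. The plakophilin gene PKP1 was at least 2.30-fold lower, but 1.38-fold without background correction, where DSP alone stayed called. The plakoglobin gene JUP differed by -0.89, the desmosomal cadherin genes DSC2 by -0.79 and DSG2 by -0.06, a value whose sign differed with the processing, and PKP3 by -0.04. E-cadherin (CDH1) differed by -0.85. Among genes of epidermal differentiation 5 of 17 measured were lower (29.4%) and 1 higher (5.88%), against 3.57% and 2.99% over all genes. Their median was -0.28, and -0.99 among genes detected on both arrays. TGM1, the transglutaminase of the cornified envelope, was 2.93-fold lower, and the envelope proteins EVPL and PPL 2.13-fold and 2.06-fold. GRHL2, an epithelial transcription factor, was 2.13-fold lower and its relative GRHL1 2.54-fold higher. Without background correction 1 gene of this differentiation list stayed lower and 0 higher, with TGM1 1.58-fold, EVPL 1.64-fold, PPL 1.43-fold and GRHL2 1.80-fold lower and GRHL1 1.48-fold higher.

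**Figure D4:**
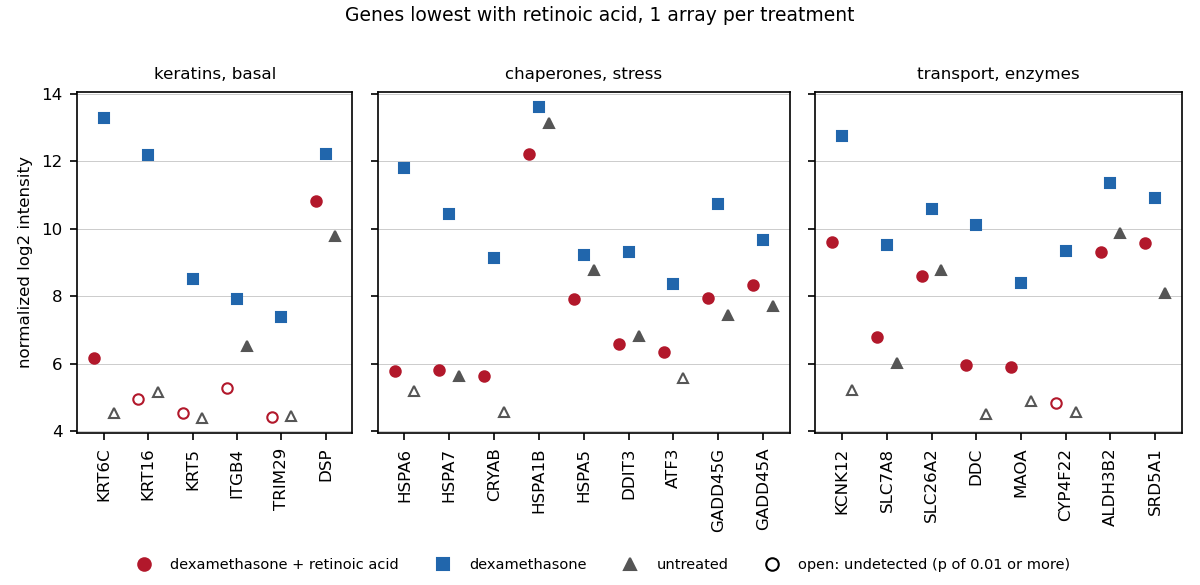
Normalized log2 intensity (y axis) of genes that were lower with retinoic acid, in 3 panels, with 1 point per array for dex+RA, dex and untreated cells; open points are undetected. For most of these genes the dex array stands above both others, as for KRT6C (10020.4 on the dex array against 71.6 on the dex+RA array) and HSPA6.

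Of 40 measured heat shock proteins and chaperones, 7 were lower with retinoic acid (17.5%, against 3.57% over all genes). In the same list 1 was higher (2.5%, against 2.99%) and 32 were not called (median -0.26). HSPA6, a strictly stress-induced HSP70, had 55.2 on the dex+RA array, against 3599 on the dex array and 36.4 (undetected) on the untreated array. It was 65.2-fold lower (log2 difference -6.03, bead SE 0.19), and its other probe 6.54-fold lower. HSPA7, a near-identical copy whose signal may not be separable, was 24.8-fold lower. CRYAB had 49.4 on the dex+RA array, against 558 on the dex array and 23.6 (undetected) on the untreated array, and was 11.3-fold lower. HSPA1B, the major inducible HSP70, was bright throughout, with 4762 on the dex+RA array, against 12414 on the dex array and 8956 on the untreated array, and was 2.61-fold lower; its near-identical neighbour HSPA1A differed by -0.71. The constitutive HSP90AA1 differed by -0.05 and the mitochondrial HSPD1 by 0.40, and HSPA13 was 2.04-fold higher. HSPA13 was 1.44-fold higher without background correction, where 5 members stayed lower and 0 higher.

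Several genes of stress responses were lower. DDIT3, the factor CHOP of the integrated stress response, had 96.2 on the dex+RA array, against 635 on the dex array and 112 on the untreated array, and was 6.60-fold lower. ATF3 had 80.8 on the dex+RA array, against 329 on the dex array and 47.3 (undetected) on the untreated array, and was 4.07-fold lower. GADD45G had 247 on the dex+RA array, against 1702 on the dex array and 173 on the untreated array, and was 6.88-fold lower. These genes were low on both the dex+RA and untreated arrays and high on the dex array. GADD45A, a growth arrest gene, was 2.55-fold lower, NUPR1, a stress-induced chromatin protein, 2.93-fold lower and HSPA5, the chaperone BiP of the endoplasmic reticulum, 2.50-fold lower. Of 29 measured genes of the unfolded protein response, 3 were lower (10.3%) and 1 higher (3.45%), against 3.57% and 2.99% over all genes. The median was -0.16. The higher one was the transcription factor gene XBP1 (2.06-fold, and 1.52-fold at the lowest, with scaling to the 75th percentile of detected probes). ATF4, upstream of DDIT3, differed by 0.04. NUPR1 was 1.99-fold lower without background correction, and HSPA5 1.96-fold lower with the deposited normalized values.

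Immediate early genes gave 4 lower (16.7%) and 2 higher (8.33%) of 24 measured, against 3.57% and 2.99% over all genes (median -0.21). FOSB, a subunit of AP-1, was 3.26-fold lower, and JUN, its partner, had 795 on the dex+RA array, against 2030.2 on the dex array and 862 on the untreated array, and was 2.55-fold lower. EGR1, a growth factor-induced zinc finger protein, had 374 on the dex+RA array, against 976 on the dex array and 238 on the untreated array, and was 2.61-fold lower. For JUN and EGR1 the dex array was the highest of the 3. DUSP1 and DUSP5, phosphatases that switch off MAP kinases, were 2.17-fold and 3.00-fold lower. MYC differed by 0.65, and the small Maf gene MAFF was 2.33-fold higher. Without background correction FOSB was 1.85-fold lower and MAFF 1.43-fold higher, and the lowest fold of DUSP1 under another setting was 1.93-fold.

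The epithelial ETS transcription factors split. Of 18 measured, 1 was higher (5.56%) and 4 lower (22.2%), against 2.99% and 3.57% over all genes (median -0.19). Against the higher ELF3, ELF5, a factor of alveolar progenitors, had 203 on the dex+RA array, against 1056 on the dex array and 716 on the untreated array, and was 5.19-fold lower (log2 difference -2.38, bead SE 0.11; its other probe at least 2.05-fold). EHF, a close relative, had 61.6 on the dex+RA array, against 201 on the dex array and 101 on the untreated array, and was 3.27-fold lower. SPDEF, a factor of secretory cells, had 985 on the dex+RA array, against 2339 on the dex array and 2753 on the untreated array, and was 2.37-fold lower, and the RAS-responsive ETS2 was 3.00-fold lower. The 2 closely related factors ELF3 and ELF5 therefore differed in opposite directions, by 2.36 and -2.38. ETS1 differed by -0.78 and the repressor gene ERF fell just short of a 2-fold difference, on the lower side. EHF was 1.78-fold lower without background correction.

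Luminal and hormone-response genes were mixed. Of 41 measured genes of the estrogen receptor luminal axis, 3 were higher (7.32%) and 5 lower (12.2%), against 2.99% and 3.57% over all genes. The median was -0.14. ESR1 had 619 on the dex+RA array, against 376 on the dex array and 1252 on the untreated array, a log2 difference of 0.72. MYB, a luminal proto-oncogene, had 790.5 on the dex+RA array, against 334 on the dex array and 1548 on the untreated array, and was 2.37-fold higher than with dexamethasone alone. Both were highest on the untreated array. The mucin gene MUC1 was 2.17-fold lower and the growth factor receptor gene ERBB3 2.85-fold lower, and TFF1, a secreted estrogen target, differed by -0.36. PRLR, the prolactin receptor gene, had 390.5 on the dex+RA array, against 996 on the dex array and 351 on the untreated array, and was 2.55-fold lower; the growth hormone receptor gene GHR was 2.30-fold lower and STAT5B, the transcription factor downstream of both, differed by -0.98. GPER1, a membrane estrogen receptor, was 6.48-fold lower. GHR was 1.80-fold lower without background correction, ERBB3 1.80-fold lower with the median over its probes and MYB 1.96-fold higher with the deposited normalized values.

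A list of receptor kinases outside the ERBB family, their coreceptors and their ligands gave 2 higher and 4 lower of 28 measured (median -0.42). Those shares were 7.14% and 14.3%, against 2.99% and 3.57% over all genes. GFRA1, the coreceptor of RET for GDNF, had 200.5 on the dex+RA array, against 903 on the dex array and 1452 on the untreated array, and was 4.51-fold lower. FGFR4 had 96.7 on the dex+RA array, against 336 on the dex array and 853 on the untreated array, and was 3.48-fold lower. In both the dex+RA level was the lowest and the untreated level the highest. FGF18, a ligand of FGF receptors, was 4.04-fold lower, and EPHB4, an ephrin receptor, 3.72-fold lower. ERBB2 differed by -0.49 and AXL by -0.54.

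Glucocorticoid receptor targets were measured with dexamethasone present on both sides. Of 39, 3 were higher with retinoic acid (7.69%) and 5 lower (12.8%), against 2.99% and 3.57% over all genes (median -0.33). TSC22D3, the leucine zipper protein GILZ, had 9689.8 on the dex+RA array, against 3735 on the dex array and 524 on the untreated array, and was 2.60-fold higher, with 2.24- to 2.42-fold on its other probes. SCNN1A, the alpha subunit of the epithelial sodium channel, had 2076 on the dex+RA array, against 588 on the dex array and 297 on the untreated array, and was 3.53-fold higher. Its partner SCNN1B had 107 on the dex+RA array, against 258 on the dex array and 27.1 (undetected) on the untreated array, and was 2.41-fold lower, so subunits of 1 channel differed in opposite directions. The atrophy-linked ubiquitin ligase gene FBXO32 had 2568 on the dex+RA array, against 5763 on the dex array and 77.3 on the untreated array, and was 2.24-fold lower, and RASD1, a dexamethasone-induced RAS protein, 4.74-fold lower. FKBP5, SGK1 and KLF9, all classical targets, differed by -0.49, -0.35 and -0.33, and the metallothionein gene MT2A by 0.34. SCNN1B was 1.67-fold lower without background correction.

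Several of the lower genes encode enzymes, channels or transporters. Of 46 measured steroid and xenobiotic enzymes, 7 were lower and 2 higher (median -0.16). DDC, which makes dopamine and serotonin, had 61.7 on the dex+RA array, against 1095 on the dex array and 22.7 (undetected) on the untreated array, and was 17.7-fold lower. CYP4F22, a fatty acid hydroxylase of the epidermal barrier, was at least 13.1-fold lower, and MAOA, a monoamine oxidase, 5.59-fold lower. The aldehyde dehydrogenase gene ALDH3B2 was 4.17-fold lower and the steroid 5-alpha reductase gene SRD5A1 2.54-fold lower. The glucuronosyltransferase gene UGT2B11 was 3.66-fold higher, as was its near-identical relative UGT2B28 (2.73-fold, and 1.63-fold without background correction), and the 2 probes may share signal. KCNK12, a 2-pore potassium channel gene, had 786 on the dex+RA array, against 6880.3 on the dex array and 37.0 (undetected) on the untreated array, and was 8.75-fold lower. CLIC3, a chloride channel-like protein, had 36.9 (undetected) on the dex+RA array, against 444 on the dex array and 532 on the untreated array, and was at least 9.01-fold lower. Of amino acid carriers SLC7A8 was 6.64-fold and the taurine carrier gene SLC6A6 3.47-fold lower, and the sulfate carrier gene SLC26A2 3.96-fold lower, whereas SLC3A2, SLC7A5 and SLC7A2 differed by 0.20, 0.10 and 0.03.

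Extracellular matrix genes held more lower than higher members (20.7% and 6.9%, against 3.57% and 2.99% over all genes). Of 29 measured extracellular matrix genes, 6 were lower and 2 higher (median -0.49; -0.24 without background correction). COL4A5, a basement membrane collagen, was 5.04-fold lower, the fibulin gene EFEMP1 4.73-fold, the proteoglycan gene BGN 2.50-fold and the matricellular gene THBS1 2.48-fold lower, and MATN2, a matrilin, 3.30-fold higher. Of 15 fibroblast markers, 3 were measured and 0 called. The summed bead intensity of the detected ones was 363 on the dex+RA array, 760 on the dex array and 353 on the untreated array. Of 40 measured genes of the cytoskeleton and contraction, 3 were lower, 1 higher and 36 not called (median -0.36). At 7.5% and 2.5%, those shares lay near the ones over all genes in a list this small. TUBB3, a neuronal class of tubulin, had 739 on the dex+RA array, against 3233 on the dex array and 3168 on the untreated array, and was 4.38-fold lower, and TUBB2B was at least 4.57-fold higher (1.89-fold with the deposited normalized values). AMOT, an angiomotin of tight junctions, was 7.89-fold lower, CNTNAP2, a neuronal adhesion protein, at least 14.4-fold, the exchange factor gene ARHGEF37 7.34-fold and GMPR, a purine salvage enzyme, 6.13-fold.

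Lists of housekeeping processes held few called genes, beside 2.99% called higher and 3.57% called lower over all genes. None of 66 measured cytosolic ribosomal protein genes was called (median -0.04, though -0.40 with the 75th percentile of detected probes as the scale). None of 25 cholesterol synthesis genes was called (median 0.04), nor any of 15 circadian clock genes (-0.09) or 6 metallothionein genes (-0.02). In lists this small, the absence of calls lies near the share over all genes. Of 64 respiratory chain genes 1 was called higher, NDUFA5, a subunit of complex I (at least 2.16-fold, but 1.33-fold without background correction), with a median of -0.15. In cholesterol synthesis the enzyme genes MSMO1 and SQLE differed by 0.82 and 0.51. In all, the 58 lists held 1254 measured genes and 169 of the 705 called ones.

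The thresholds had no gap around them. At the detection threshold, 183 probes entered with a best detection p-value of 0.00909 and a median brighter intensity of 186.5, and 290 probes with 0.0104 to 0.0117 stayed out with a median of 181.8. At the size threshold, 100 genes lay within 0.05 on the log2 scale inside a 2-fold difference and 102 within the same width outside. Bead error was small beside the differences, with a median SE of 0.127 for called genes, and 320 of 321 higher and 383 of 384 lower genes exceeded 3 bead SE, but it carries no information on repeated cultures. Background correction set the size of many folds, and without it 108 higher and 153 lower genes remained past 2-fold, all among those called.

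**Figure D5:**
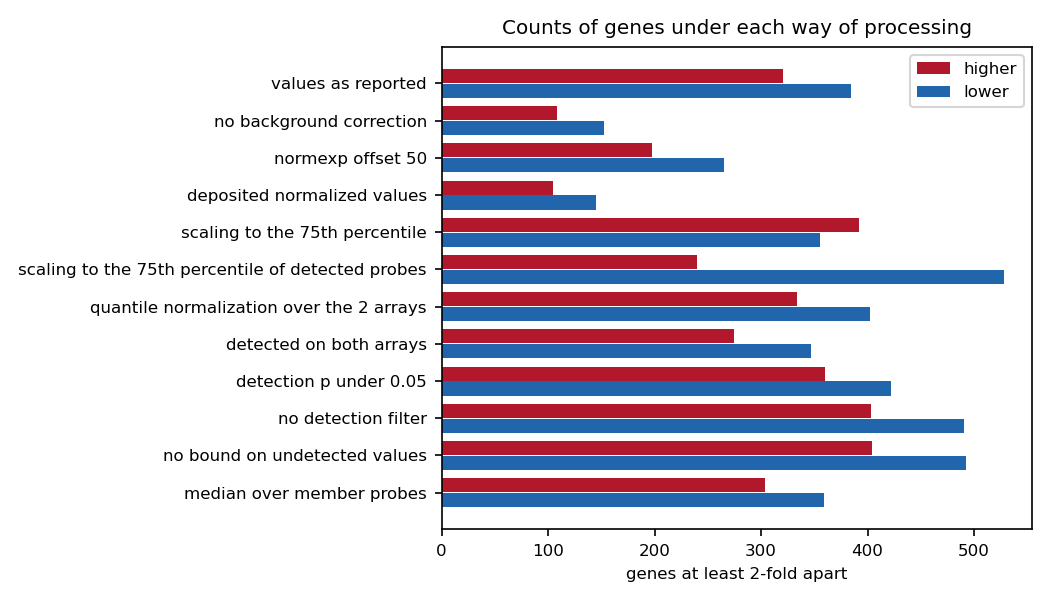
Number of genes at least 2-fold higher or lower with retinoic acid (x axis) under the reported and 11 other ways of processing (y axis). The counts fall to 108 and 153 without background correction and to 105 and 145 with the deposited normalized values, and scaling to the 75th percentile of detected probes shifts them to 240 and 528.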

How the data were processed

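Total RNA was labelled as biotinylated cRNA and hybridised to Illumina bead arrays, per the labels' protocols. The deposited table holds, per the file headers, the mean bead intensity of each probe, its standard error, the number of beads and a detection p-value. A further deposited table holds intensity values that the authors had scaled between arrays by an unstated method; its ranks equalled those of the bead table (Spearman correlation 1) and its medians were 137.5 on the dex+RA array, 137.5 on the dex array and 137.4 on the untreated array, so it served as an alternative only. Array software is not given in the sources used here.

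Bead intensities of the 3 arrays were background corrected with limma 3.58.1 in R 4.3.3 (normexp, with the negative controls inferred from the detection p-values, offset 16), quantile normalized between arrays and expressed as log2. Quantile normalization takes the arrays to share 1 distribution, and the offset pulls low values together. Python 3.11.15 with numpy 2.4.6 and pandas 2.3.3 computed the differences, and matplotlib 3.10.9 drew the figures. Probes were named through the platform annotation, in which 30109 of 30117 listed probes had 1 symbol and 8 several, and 17198 probes of the array had no name here. RefSeq on GRCh38.p14 held the gene identifiers of 30070 listed probes, with 0 symbols changed. Named probes undetected on both arrays numbered 15896 and stayed out. The procedure was tested on simulated data with known differences, planted only in detected probes well above background. Differences in probes that start at background, and a difference between slides, were not simulated.

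Groups came from the labels, and slides from the array identifiers in them. With 1 array per group no test was possible, and a gene was called by size alone, a log2 difference of at least 1. The members, the 58 gene lists of 2042 genes (130 without a named probe here) and the naming rule were chosen with earlier results of these data known, and the promoter hexamer counts after the values were seen. The rule named the 20 largest differences in each direction among genes with no other measured probe past 0.2 the opposite way, up to 8 called and up to 4 bright uncalled members per list, all members of 6 retinoid and epithelial lists, selected receptors and cell type markers, and near-identical copies; not all of these are printed. Gene lists are described by counts and medians without a test. The alternatives varied the background step, the offset, the source table, the scaling, the detection filter, the bound and the probe rule.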

Additional observations from a re-analysis of the deposited data

Results flagged for a closer look

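Probes that the annotation leaves without a gene name carried signal outside the comparison of named genes. Of 3925 such probes detected on at least 1 of the 2 arrays, 190 differed at least 2-fold, 110 higher on the dex+RA array (2.80%) and 80 lower (2.04%). Among the named probes 459 (3.23%) were higher and 476 (3.35%) lower. The unnamed probes were not assigned to genes here, and outliers within a group could not be sought with 1 array per group.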

How the results depend on the processing

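Of the 182 called genes under the naming rule, 0 changed direction under the 11 other ways of processing, 1 of which (the 75th percentile of detected probes) was chosen after seeing the data, though only 150 had a value when detection on both arrays was required. The ways that changed only the detection filter or the bound could hardly reverse a called gene, since they kept, widened or dropped its difference. Without background correction 113 of the 182 stayed past 2-fold. Counts depended most on background. Over all genes, 108 were then higher and 153 lower, the deposited normalized values gave 105 and 145, and an offset of 50 gave 198 higher and 265 lower. The cause of the lower counts in the deposited values was not tested. Scaling moved the split instead, to 392 higher and 355 lower with the 75th percentile of all probes and to 240 and 528 with that of detected probes. The other alternatives gave 275 to 404 higher and 347 to 492 lower. With no background correction CYP26A1 was 29.2-fold, DHRS3 26.4-fold, TMPRSS2 13.1-fold and IL20 7.79-fold higher, and KRT6C 53.4-fold, KRT16 28.4-fold and HSPA6 21.4-fold lower. Of the 58 lists, 11 had medians of both signs over the ways of processing, and their reported medians lay within 0.23 of 0. Signal over background limits the dim genes, since 46 of the higher and 37 of the lower folds are bounds set by the detection limit. No paired analysis was possible because each group held 1 array, and for the same reason no array could be left out.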

Other observations

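Clustered histone genes, which were in none of the lists and were looked at after their values were seen, mostly differed in the direction opposite to the replication genes. Of 35 measured, 5 were lower and 1 higher with retinoic acid, with 31 log2 differences below 0 and 3 above (median -0.57). H3C10 had a normalized intensity of 147.8 on the dex+RA array, against 463.9 on the dex array and 273.2 on the untreated array. H2AC20 had 1272.1 on the dex+RA array, against 3036.9 on the dex array and 1743.3 on the untreated array. Both were highest with dexamethasone alone, with log2 differences of -1.65 and -1.26. H4C3 went the other way, with 5205 on the dex+RA array, against 1011 on the dex array and 7694 on the untreated array, a log2 difference of 2.36. H2AC18 and H2AC19 were lower by log2 differences of -1.10 and -1.15, and their near-identical sequences may share signal.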
